A study of Homo sapiens with 6 samples.

Results

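Heterotrimeric G proteins carry signals from receptors at the cell surface to enzymes and channels inside the cell. An activated receptor makes the alpha subunit exchange GDP for GTP, the alpha subunit then parts from the beta-gamma dimer, and both act on effectors until the alpha subunit hydrolyses its GTP. RGS (regulator of G protein signalling) proteins speed that hydrolysis, and the chaperones RIC8A and RIC8B help newly made alpha subunits to fold. Most alpha subunits are held at the membrane by palmitate on cysteines close to their amino terminus, a lipid that ZDHHC enzymes attach, and ZDHHC20, the enzyme silenced here, is a member of that family.

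The genes described here are 38 genes of G protein signalling, namely 12 alpha, 5 beta and 7 gamma subunits, the beta-like gene GNB1L, 10 RGS genes, 2 alpha subunit chaperones and the receptor GPR157. They were listed by role with earlier results of these data known, and then selected on their mean over the 6 libraries, which had to be at least 1. Of the 38, 35 passed and were tested among 22189 genes. RGS16 fell below the limit with a mean of 0.52, GNA14 lay just above it with a mean of 1.28, and GNG2 and RGS4 were not analysed here. GNA14 passed only through the shZDHHC20 libraries, as its mean in shControl was 0.335. GNB1 was singled out, and GPR157 is the only receptor listed, with their changes known, so their p-values and the counts that include them give no support to the choice of genes.

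RNA-seq libraries were made from PANC-1, an established human pancreatic cancer cell line. The labels name RPMI-1640 as its medium, whereas the study's methods name DMEM for its cell lines. There were 3 shControl libraries, from cells that received a control shRNA, and 3 shZDHHC20 libraries, from cells in which ZDHHC20 was knocked down by shRNA. The labels do not say which shRNA was used, nor whether replicates came from separate cultures, so p-values measure the spread between these libraries, which may be technical. In each library the deposited values were whole multiples of the smallest value above 0, the form that counts take after scaling of a whole library, and they are called normalized counts here. Nothing in them showed a division by gene length.

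ZDHHC20 itself stood at 2001, 2033 and 1940.4 normalized counts in shControl replicates 1, 2 and 3 and at 872, 779 and 893 in the shZDHHC20 replicates, which was 42.6% of the control mean. The libraries summed to between 17083277 and 18007664 normalized counts. Their scaling factors, taken as the inverse of the smallest value above 0, lay between 93.8% and 105.9% of the mean factor. Keratin genes of ductal epithelium, KRT7, KRT8, KRT18 and KRT19, summed to 80540 to 82580 normalized counts in shControl and 74800 to 76190 in shZDHHC20. Most of the sum was KRT8 and KRT18, which were lower in every silenced library than in every control. KRT19 was higher in every silenced library, with means of 5917 and 6304, and KRT7 averaged only 85.9 with overlapping groups. None of these keratin genes was called in limma. Markers of acinar, endocrine and immune cells summed to at most 8.45 in any library, and endothelial markers to at most 55.6. Of the fibroblast markers, COL1A1 fell to 82.9% of its control mean (limma, adjusted p = 0.00288), LUM was at 0 in all shControl libraries with a mean of 2.33 in shZDHHC20, and COL1A2 and DCN were not analysed here. Their part in the results below was not tested. In bulk RNA, fewer cells that express a gene and less of its RNA per cell cannot be told apart.

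One library, shZDHHC20 replicate 2, stood apart from the other 2 of its group. In it, 18 of the 35 genes differed by more than 10% from the mean of the other 2, against 14 in each of the other shZDHHC20 libraries and 8 to 11 in the shControl libraries. With all libraries, 2541 of 22189 genes were called (11.5%) and 9 of the 35 (25.7%). Without shZDHHC20 replicate 2, 4454 of all genes were called and 13 of the 35, so calls rose over the whole table and not only among the 35. For GNB2, GNAS, GNA12, GNA13, GNG5 and RGS14, log2 fold changes are given with and without this library. Changes of other genes may also rest on it.

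The sites that palmitate can occupy are written at the start of the coding sequences, and they are shown for the alpha subunits on which the results turn. GNAO1, GNAI2 and GNAI3 are the alpha subunits whose RNA was called changed in limma. GNAS is the most abundant one per length, and GNAQ and GNA11 carry the other arrangement of cysteines. Each line gives codons 1 to 10, from 5′ to 3′, of the annotated transcript (GENCODE 29, GRCh38), with cysteine codons in capitals.
GNAO1: atgggaTGTactctgagcgcagaggagaga
GNAI2: atgggcTGCaccgtgagcgccgaggacaag
GNAI3: atgggcTGCacgttgagcgccgaagacaag
GNAS: atgggcTGCctcgggaacagtaagaccgag
GNAQ: atgactctggagtccatcatggcgTGCTGC
GNA11: atgactctggagtccatgatggcgTGTTGC
In GNAO1, GNAI2, GNAI3 and GNAS the cysteine was codon 3, directly behind the glycine codon, whereas GNAQ and GNA11 had a pair that began at codon 9. GNA12 and GNA13, the alpha subunits of the G12/13 class, had their first cysteine at codons 11 and 14. The 3 alpha subunits whose RNA was called changed share the position of this cysteine with each other and with GNAS, GNAI1 and GNAZ, whose RNA was not called changed. The calls of GNAI2 and GNAI3 were lost in 8 and 5 of 15 alternative settings. Palmitate on the proteins was not measured by these RNA values.

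Across the 35 genes, 9 were called at an adjusted p under 0.05 in limma (25.7%), against 11.5% of all genes tested. Without GNB1 and GPR157 the count was 7 of 33 (21.2%). Of the 9, 6 were lower in shZDHHC20, where 6.84% of all genes were called lower, and 3 were higher, where 4.61% of all genes were called higher. The lower genes were the receptor GPR157, the beta subunits GNB1 and GNB4, the alpha subunit GNAO1 and the RGS genes RGS17 and RGS10. The higher genes were the alpha subunits GNAI2 and GNAI3 and the gene RGS19. For 14 of the 35 genes the groups did not overlap (40%), against 28.6% of all genes. The median log2 fold change of the 35 was -0.02, beside 0.01 over all genes tested. The shares of all genes, here and below, are not matched for level. With a mean of at least 5 required, 10 of 32 of the G protein and RGS genes were called, beside 2822 of 16888 genes in all. Fold changes are on the scale of log2(normalized count + 0.1), adjusted p-values cover all 22189 genes, and 95% intervals are for single genes without adjustment.

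**Figure D1:**
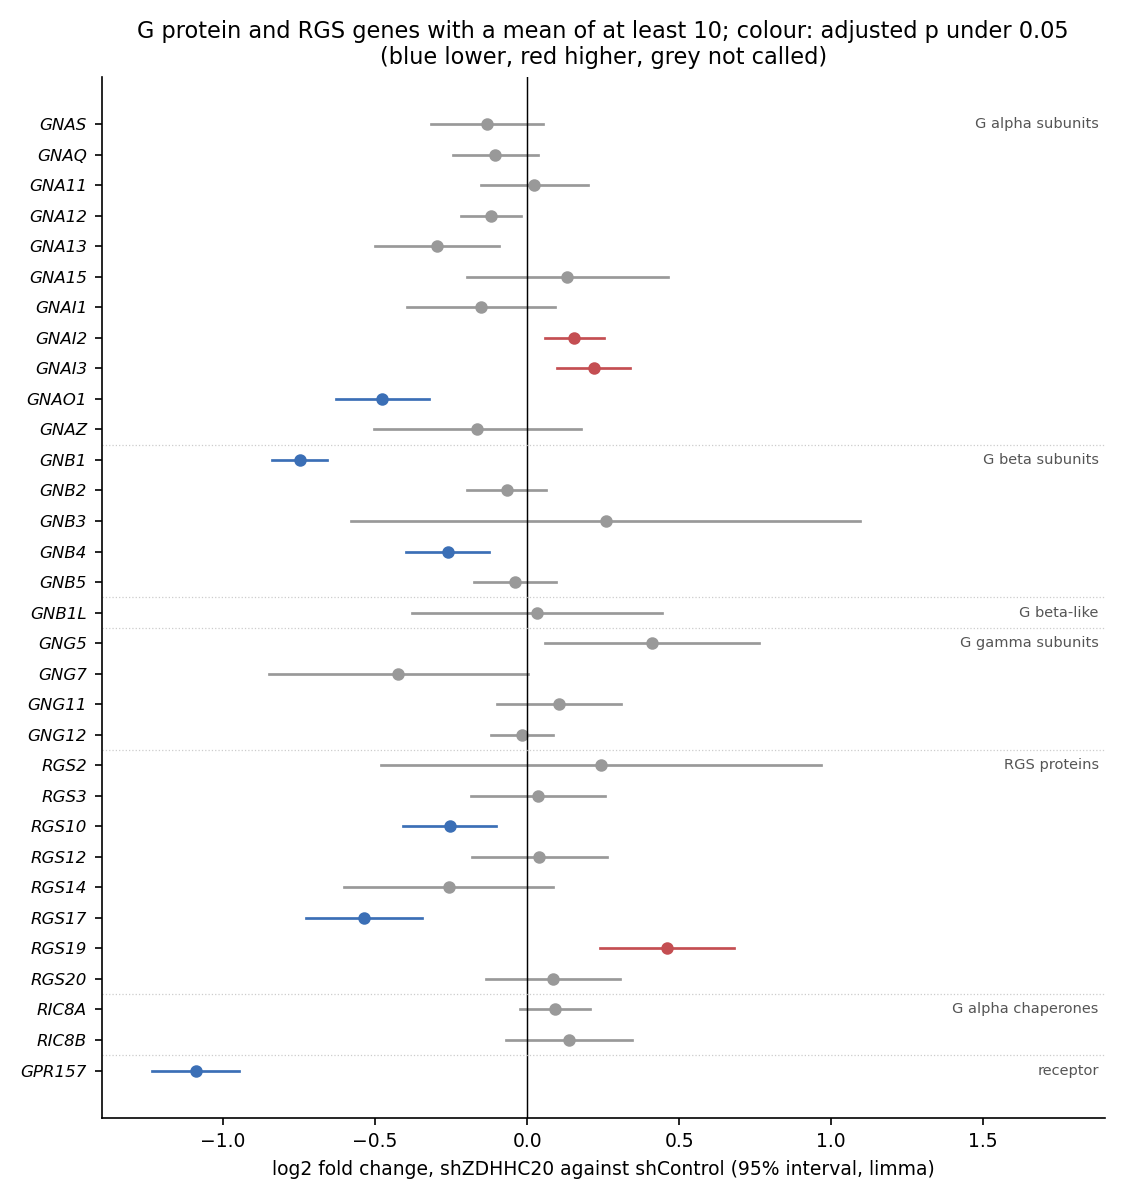
Log2 fold change of shZDHHC20 against shControl (points) with its 95% interval from limma (lines), for 32 genes whose mean was 10 or more, ordered by role. GPR157 at -1.09 and GNB1 at -0.75 lie farthest to the left of zero, and the calls among alpha subunits and RGS genes lie on both sides.

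Among the beta subunits, which pair with a gamma subunit in the dimer that docks the alpha subunit to its receptor, GNB1 changed by far more than its paralogs. GNB1 (chr1:1785285-1891117, minus strand, GRCh38) held 10429, 10576 and 10908 normalized counts in shControl replicates 1, 2 and 3 and 6295, 6313 and 6382 in the shZDHHC20 replicates. The lowest control library was well above the highest silenced one, and the 3 silenced libraries lay within 1 narrow band. The mean fell from 10638 ± 246 to 6330.1 ± 46.1 (SD, n = 3 each), to 59.5% of the control. Its log2 fold change of -0.75 had a 95% interval from -0.84 to -0.66 (limma, SE 0.0418, adjusted p = 5.49e-07), which ranked 5th by p-value of 22189 genes. An exact permutation test over the libraries gave p = 0.1, the smallest that 3 against 3 allows. Leaving out any 1 library kept the log2 fold change between -0.76 and -0.73.

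GNB2, the next most abundant beta subunit, held 3326, 3159 and 3271 normalized counts in shControl and 2979.6, 3404 and 2943 in shZDHHC20. Its groups overlapped because shZDHHC20 replicate 2 was the highest of all 6 libraries. On the log2 scale GNB2 differed by -0.07, with a 95% interval from -0.20 to 0.06 (limma, adjusted p = 0.547). Without that library it was -0.13 and passed the test (limma, adjusted p = 0.014).

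GNB4 (chr3:179396089-179451590, minus strand) held 1099, 1071 and 1109 normalized counts in shControl and 925, 863 and 949 in shZDHHC20. All silenced libraries lay below all controls, and the mean fell to 83.5% of the control. On the log2 scale this was a change of -0.26 ± 0.0629 (SE, limma, adjusted p = 0.0163). The call was lost without shControl replicate 1, 2 or 3 (limma, adjusted p = 0.0844, 0.0604 and 0.0908) and without shZDHHC20 replicate 1 (0.0576).

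GNB5, the divergent beta subunit that partners RGS proteins of the R7 family, held 981, 967 and 950.2 normalized counts in shControl and 943, 979.5 and 898 in shZDHHC20. The groups overlapped, and the log2 fold change was -0.04 with a 95% interval from -0.17 to 0.09 (limma, adjusted p = 0.759). GNB3, known from cone photoreceptors and taste cells, held only 14.1, 11 and 12 normalized counts in shControl and 11.7, 16 and 17.3 in shZDHHC20. At these few counts its interval, from -0.58 to 1.10 on the log2 scale, was too wide to place it (limma, adjusted p = 0.749). GNB1L, a WD-repeat gene that is no G beta subunit despite its name, ranged from 77.4 to 127 normalized counts with overlapping groups.

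**Figure D2:**
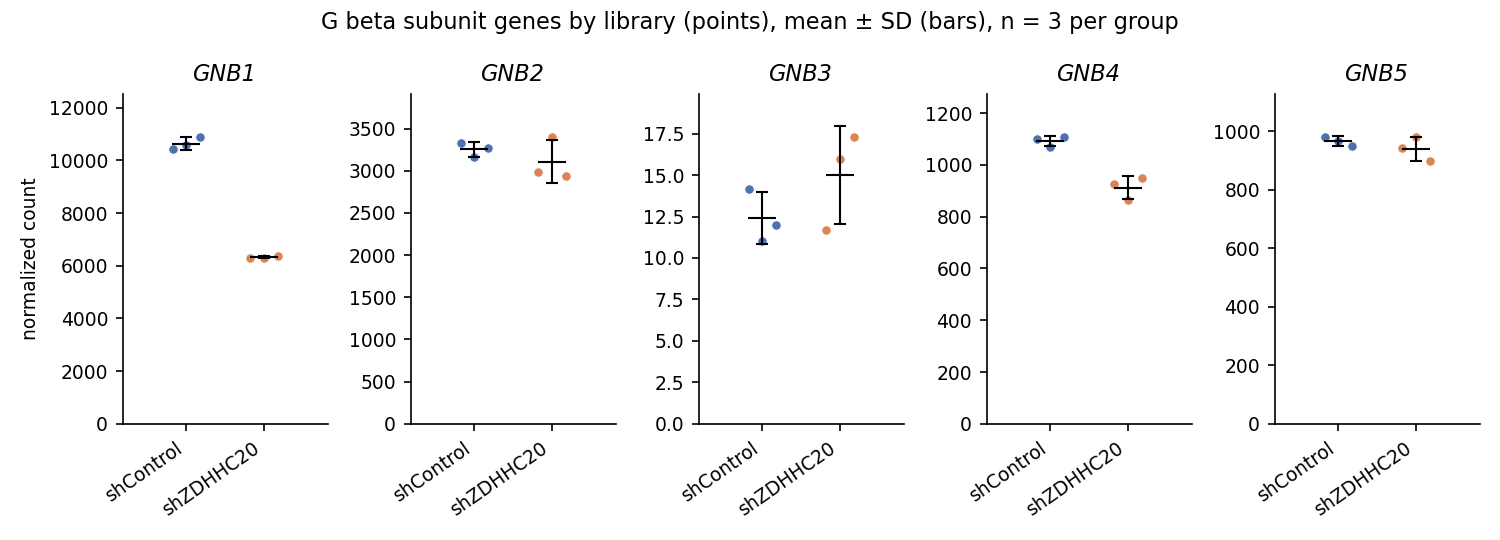
Normalized counts of the 5 G beta subunit genes in each library (points), with the mean and SD of the 3 libraries of a group (bars); each panel has its own axis from 0. GNB1 drops from about the level of 10638 to 6330.1 with no overlap, GNB4 drops less, and GNB2, GNB3 and GNB5 overlap between the groups.

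The drop of GNB1 was also measured against its paralogs within each library, where any scaling factor of the library cancels. Log2 of GNB1 minus the mean log2 of GNB2 to GNB5 was 4.46, 4.60 and 4.59 in shControl and 3.91, 3.77 and 3.80 in shZDHHC20. The groups were apart by -0.72 ± 0.0638 (SE), again at the smallest exact permutation p of 0.1. Against each paralog on its own the difference between groups was -0.68 for GNB2, -1.01 for GNB3, -0.49 for GNB4 and -0.71 for GNB5, in each case without overlap. The largest, against GNB3, rests on few counts (SE 0.203), yet GNB3 weighs as much in the mean as each other paralog. GNB1 and GNB2 share 79.3% of their coding bases, GNB1 and GNB3 76.8% and GNB1 and GNB4 75.1%. The longest stretch that the transcript of GNB1 shares with a paralog is 44 bases, with GNB2.

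Per length, GNB1 was the leading beta subunit in both groups. It stood at 3382 ± 78.1 normalized counts per kilobase of annotated transcript in shControl and 2013 ± 14.6 in shZDHHC20 (SD, n = 3), and GNB2 stood at 1732 ± 45.5 and 1655 ± 137. GNB4, at 169.9 and 142, and GNB5, at 108 and 106, were far lower, and GNB3 was at 6.45 and 7.79. Of the summed level per kilobase of the 5 genes, GNB1 made up 61.7%, 63.1% and 63.1% in the shControl libraries and 52.1%, 49.3% and 52.7% in the shZDHHC20 libraries. The share of GNB2 was correspondingly larger, at 42.2% ± 2.07 after 32.1% ± 0.759 (SD, n = 3). The summed level itself was 72.7% of the control mean (exact permutation p = 0.1, the smallest possible). Each level rests on 1 annotated transcript per gene, and transcript use in these cells is not known from the values.

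**Figure D3:**
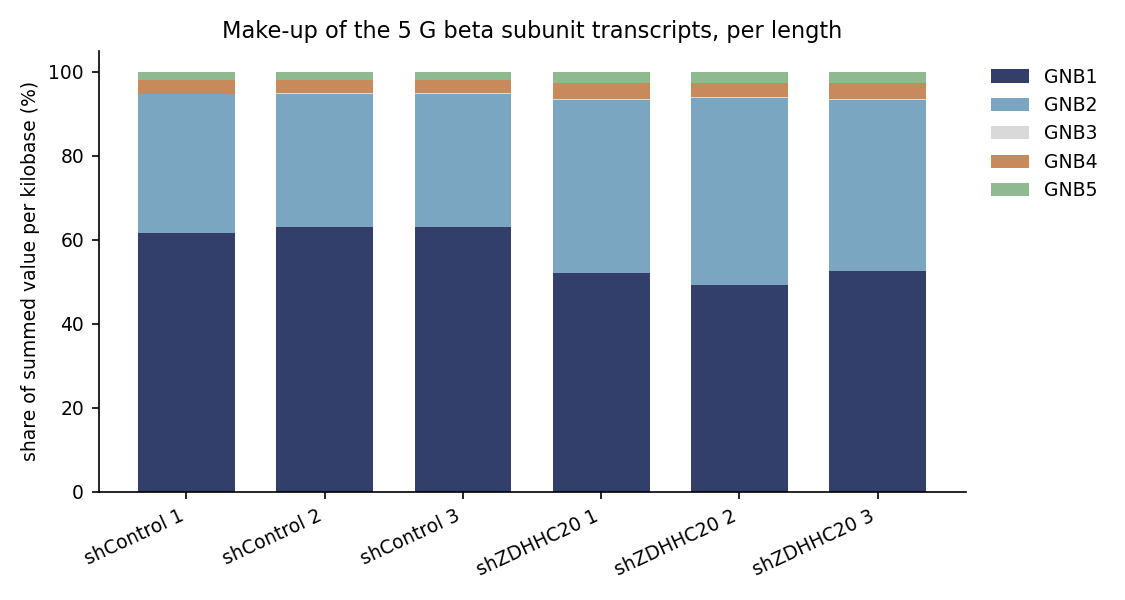
Stacked bars give, for each library, the share in percent that each G beta subunit gene takes of the summed normalized counts per kilobase of the 5 genes. The GNB1 share lies between 61.7% and 63.1% in shControl and between 49.3% and 52.7% in shZDHHC20, and most of the rest is GNB2.

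Among the 12 alpha subunits, 3 were called (25%, against 11.5% of all genes), 1 lower and 2 higher (against 6.84% and 4.61% of all genes), and the median log2 fold change was -0.11. All 3 belong to the Gi/o class, whose members inhibit adenylyl cyclase or act through their beta-gamma partners. GNAO1 (chr16:56191347-56357457, plus strand), best known as the abundant alpha subunit of neurons, held 854, 789 and 789 normalized counts in shControl and 555, 582 and 611 in shZDHHC20. Every silenced library was below every control, and the mean fell to 71.9% of the control. The change was -0.48 on the log2 scale, with a 95% interval from -0.63 to -0.32 (limma, adjusted p = 0.000769). The call held without any 1 library, with adjusted p from 0.000144 to 0.0111 in limma, and was lost when the variances were moderated without a mean-variance trend (0.0588). An annotated gene on the opposite strand shares exon positions with GNAO1, and the same holds for GNB4 and GNAI3. Whether strand was used in counting is not given in the sources used here. Among the called genes, GNAI2 and RGS17 have annotated pseudogenes.

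GNAI2 (chr3:50226292-50259355, plus strand) held 4761, 4728 and 4756 normalized counts in shControl and 5108, 5389 and 5375 in shZDHHC20. The silenced libraries were all higher, by a modest step to 111% of the control mean. This was a log2 fold change of 0.16 ± 0.0448 (SE, limma, adjusted p = 0.0401). The call was lost without shControl replicate 1, 2 or 3 (limma, adjusted p = 0.148, 0.152 and 0.152) and without shZDHHC20 replicate 1 (0.067) or 3 (0.106).

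GNAI3 (chr1:109548611-109618321, plus strand) held 1825, 1954 and 1856 normalized counts in shControl and 2085, 2205 and 2273 in shZDHHC20. Again no silenced library reached down to the controls, and the mean rose to 116% of the control. On the log2 scale the rise was 0.22 ± 0.0558 (SE, limma, adjusted p = 0.0216). The call was lost without shControl replicate 1, 2 or 3 (limma, adjusted p = 0.125, 0.0532 and 0.11) and without shZDHHC20 replicate 3 (0.0839). The annotated transcript of GNAI3 is 27174 bases long and overlaps AMPD2 on the same strand, so reads of the pair may have been shared. GNAI1, the third gene of the Gi group, ranged from 218 to 282 normalized counts with overlapping groups (log2 fold change -0.15, 95% interval -0.40 to 0.09), and GNAZ from 121 to 196.

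GNAS, which encodes the stimulatory alpha subunit of adenylyl cyclase, was the most abundant alpha subunit per length, at 6042 ± 123 normalized counts per kilobase in shControl and 5557 ± 862 in shZDHHC20. It held 12018, 12088 and 11636 normalized counts in shControl and 11851, 8998 and 12027 in shZDHHC20. The spread of the silenced group came from shZDHHC20 replicate 2, as the other 2 libraries lay among the controls. The log2 fold change was -0.13 (limma, adjusted p = 0.384), and 0.0032 without that library (0.949).

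The alpha subunits of the Gq class, which activate phospholipase C beta, were not called. GNAQ had a mean of 885 ± 19.4 normalized counts in shControl and 823 ± 36.8 in shZDHHC20, with no overlap (log2 fold change -0.11, limma adjusted p = 0.361). GNA11 ranged from 1303 to 1680.1 and GNA15, an alpha subunit of blood cells that is found in some carcinomas, from 97 to 134, each with overlapping groups. GNA14 was at or near 0 throughout, with at most 3.85 normalized counts in any library, and its level cannot be compared.

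The G12/13 alpha subunits GNA12 and GNA13 were lower in every silenced library than in every control, without passing the test. GNA12 averaged 4809.8 ± 81.3 normalized counts in shControl and 4432 ± 140.1 in shZDHHC20 (log2 fold change -0.12, limma adjusted p = 0.129). GNA13 held 1470.2, 1529.6 and 1486 normalized counts in shControl and 1272, 1010.5 and 1404 in shZDHHC20. Its log2 fold change was -0.30 (limma, adjusted p = 0.0634). The lowest library was once more shZDHHC20 replicate 2. Without it the GNA13 difference was smaller, -0.16, but passed the test (limma, adjusted p = 0.038), as did GNA12 at -0.09 (0.0421). With all libraries, GNA13 also passed with a pseudocount of 1 (limma, adjusted p = 0.0403) and with a mean of at least 5 required (0.0474). It passed in 4 of 15 alternative settings, and over the 15 its log2 fold change ranged from -0.40 to -0.16.

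The gamma subunits, the small prenylated partners of the beta subunits, gave 0 calls among the 6 tested in limma. Of the 6, 1 had an unadjusted p under 0.05, and the median log2 fold change was 0.04. Counts at that cut, here and below, stand beside at least 5077 of all 22189 genes that pass it in limma. GNG12 was the most abundant per length, at 987 ± 2.02 normalized counts per kilobase in shControl and 976 ± 35.7 in shZDHHC20. It held 4345, 4359 and 4342 normalized counts in shControl and 4390.4, 4118 and 4390.2 in shZDHHC20. The groups overlapped, and the 95% interval of the log2 fold change, from -0.12 to 0.08, was narrow around the estimate of -0.02 (limma, adjusted p = 0.874).

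GNG5 held 372, 336 and 409.5 normalized counts in shControl and 406, 698 and 425 in shZDHHC20. A single library, shZDHHC20 replicate 2, was far above the rest. The log2 fold change was 0.41 with all libraries (limma, adjusted p = 0.137) and 0.16 without it (0.263). GNG5 has 4 annotated pseudogenes, and overlaps a gene on each strand, so its reads are uncertain. GNG11 ranged from 278 to 349 normalized counts, GNG7 from 47.2 to 85.1 with no overlap (log2 fold change -0.42, limma adjusted p = 0.211), and GNG4 and GNG10 had at most 11 in any library.

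Of the 8 RGS genes tested, 3 were called (37.5%, against 11.5% of all genes), with a median log2 fold change of 0.04. RGS17 (chr6:153004459-153131249, minus strand), which acts on Gi, Go and Gz subunits, held 408, 368 and 406 normalized counts in shControl and 282, 270.5 and 262 in shZDHHC20. All silenced libraries were below all controls, and the mean fell to 68.9% of the control. For RGS17 the log2 fold change was -0.54, with a 95% interval from -0.73 to -0.35 (limma, adjusted p = 0.00157), and the call held without any 1 library (adjusted p from 0.000518 to 0.0178) but was lost without the mean-variance trend (0.0507). RGS17 belongs to the RZ subfamily, marked by a string of cysteines near the amino terminus that can carry palmitate, and its codons 21 to 30 show the first of these, with cysteine codons in capitals.
RGS17: aaccagaggcccaacaacaccTGTTGCttt

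RGS19 (chr20:64073181-64079988, minus strand), another gene of the RZ subfamily and also known as GAIP, moved the other way. It held 313, 277 and 241 normalized counts in shControl and 381, 381 and 376 in shZDHHC20. The 3 silenced libraries lay close together above the scattered controls, at 137% of their mean. RGS19 had a log2 fold change of 0.46, with a 95% interval from 0.24 to 0.68 (limma, adjusted p = 0.0104). The call was lost without shControl replicate 2 or 3 (limma, adjusted p = 0.0522 and 0.0672) and without shZDHHC20 replicate 1 (0.055). RGS20, the third gene of the subfamily, ranged from 383 to 504 normalized counts with overlapping groups (log2 fold change 0.08, 95% interval -0.14 to 0.31).

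RGS10 (chr10:119499828-119542708, minus strand), a small RGS protein of little more than the catalytic domain, was the most abundant RGS gene per length, at 775 ± 27 normalized counts per kilobase in shControl and 649 ± 14.5 in shZDHHC20. It held 598, 632 and 639 normalized counts in shControl and 533, 509.9 and 523 in shZDHHC20. The groups did not overlap, and the mean fell to 83.8% of the control. RGS10 thus had a log2 fold change of -0.25 ± 0.0708 (SE, limma, adjusted p = 0.0337). The call was lost without shControl replicate 1, 2 or 3 (limma, adjusted p = 0.0814, 0.131 and 0.15) and without shZDHHC20 replicate 1 (0.0848) or 3 (0.0788).

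The other RGS genes gave no call. RGS3 ranged from 252 to 306 normalized counts, RGS12 from 364 to 475 and RGS2, an inhibitor of Gq, from 20.1 to 49.8, all with overlapping groups. RGS14 held 219, 230.0 and 251 normalized counts in shControl and 154, 259 and 186 in shZDHHC20. With its highest value in shZDHHC20 replicate 2, its log2 fold change was -0.26 (limma, adjusted p = 0.361), and -0.46 without that library (0.0115). RGS16 was at 0, 0 and 1 normalized counts in shControl and 2.12, 0 and 0 in shZDHHC20.

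RIC8A, the chaperone of Gi, Gq and G12/13 alpha subunits, held 3393, 3403 and 3536 normalized counts in shControl and 3517, 3911 and 3590.5 in shZDHHC20. The groups overlapped, and the log2 fold change was 0.09 with a 95% interval from -0.02 to 0.21 (limma, adjusted p = 0.327). In limma 0 of the 2 chaperones were called, and 0 had an unadjusted p under 0.05. RIC8B, the chaperone of the Gs class, had means of 266 ± 19.3 normalized counts in shControl and 292 ± 13.4 in shZDHHC20.

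GPR157, an orphan receptor of the G protein-coupled class, had the largest change of the 9 called genes. GPR157 (chr1:9100305-9129170, minus strand) held 1190.3, 1274 and 1212 normalized counts in shControl and 604, 566 and 555 in shZDHHC20. The highest silenced library was far below the lowest control. The mean fell from 1225 ± 43.2 to 575 ± 25.7 (SD, n = 3 each), to 47% of the control. On the log2 scale this was -1.09, with a 95% interval from -1.23 to -0.95 (limma, adjusted p = 9.82e-07), 8th by p-value among all genes. It stayed between -1.13 and -1.06 when any 1 library was left out.

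**Figure D4:**
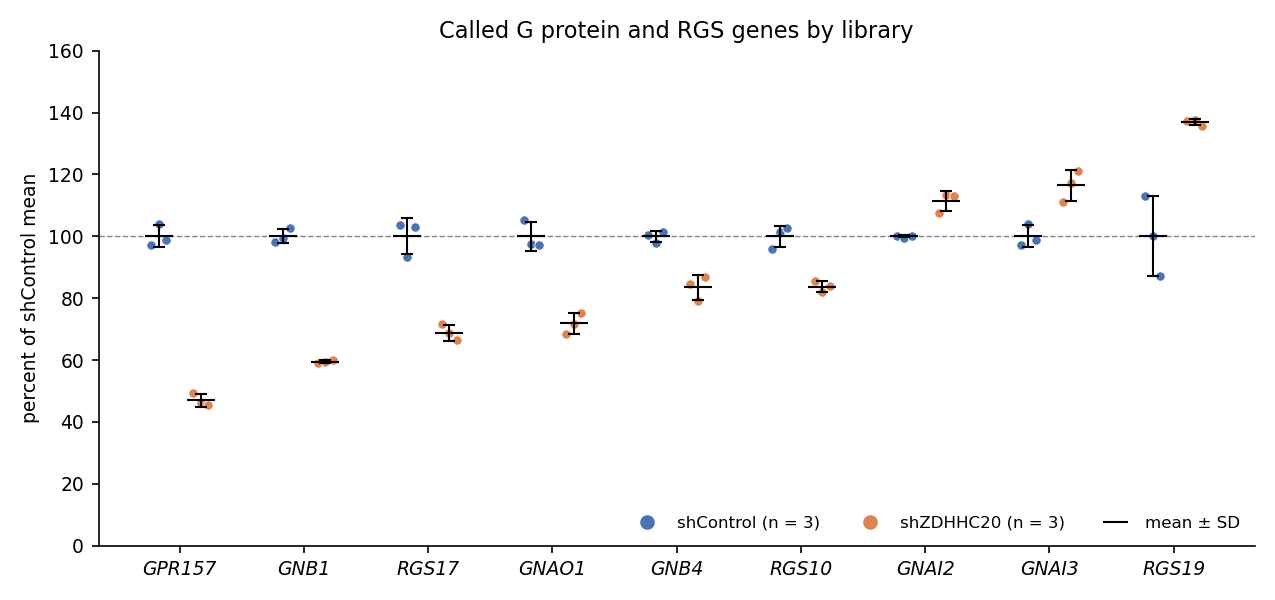
Values of the 9 called genes in each library as percent of the shControl mean (points), with the mean and SD of each group (bars, n = 3) and the control mean as a dashed line. GPR157 and GNB1 drop to 47% and 59.5%, RGS19 rises to 137%, and in none of the 9 do the groups overlap.

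Effectors and further regulators of G proteins were read from 8 lists that hold 54 genes, of which 44 were tested. Of these, 5 were called (11.4%, against 11.5% of all genes), 3 higher and 2 lower, and the median log2 fold change was -0.08. Adenylyl cyclases (6 tested), phospholipases C beta (4), receptor kinases and arrestins (7), beta-gamma effectors (2) and other regulators of alpha and beta subunits (7) gave 0 calls each in limma. At an unadjusted p under 0.05, 2 adenylyl cyclases, 0 phospholipases C beta and 3 receptor kinases and arrestins would have been counted. So would 1 beta-gamma effector and 3 other regulators. That cut is wide in these data. The arrestin gene ARRB2, at an unadjusted p of 0.0452 in limma, had rank 5077 by p-value among the 22189 genes tested. At least 5077 genes thus pass it, and these counts are not evidence of change in the lists. Of the 3 guanine nucleotide exchange factors listed as effectors of the G12/13 class, ARHGEF12 was called, and of 9 cAMP phosphodiesterases PDE8A was called.

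Protein kinase A, which cAMP activates by releasing catalytic from regulatory subunits, gave 3 of the 5 calls. Of its 6 subunit genes tested, these 3 were 50%, against 11.5% of all genes. The list was chosen with earlier results of these data known. The catalytic subunit gene PRKACB held 4139.9, 4222 and 4103 normalized counts in shControl and 2729, 2498 and 2962 in shZDHHC20. The groups were far apart, and the mean fell to 65.7% of the control (log2 fold change -0.61, limma SE 0.0601, adjusted p = 3.11e-05). The call held without any 1 library, and was lost without the mean-variance trend (limma, adjusted p = 0.0504). The other catalytic gene, PRKACA, averaged 1464 ± 112 and 1336 ± 102 normalized counts and was not called (limma, adjusted p = 0.305).

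The regulatory subunit gene PRKAR1B held 577, 543 and 558 normalized counts in shControl and 703, 832 and 684 in shZDHHC20, with no overlap (log2 fold change 0.40, limma adjusted p = 0.00725). The call was lost without shControl replicate 2 (limma, adjusted p = 0.0522). PRKAR2A averaged 2452 ± 35.3 normalized counts in shControl and 2939 ± 182 in shZDHHC20, also without overlap (log2 fold change 0.26, limma adjusted p = 0.00827). Its call was lost without shControl replicate 1 or 3 (limma, adjusted p = 0.0587 and 0.0539) or shZDHHC20 replicate 1 (0.0551). PRKAR1A, the most abundant regulatory subunit gene per length, averaged 3437 ± 180.5 and 3841 ± 213 normalized counts (limma, adjusted p = 0.0955), and PRKAR2B was near 0.

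**Figure D5:**
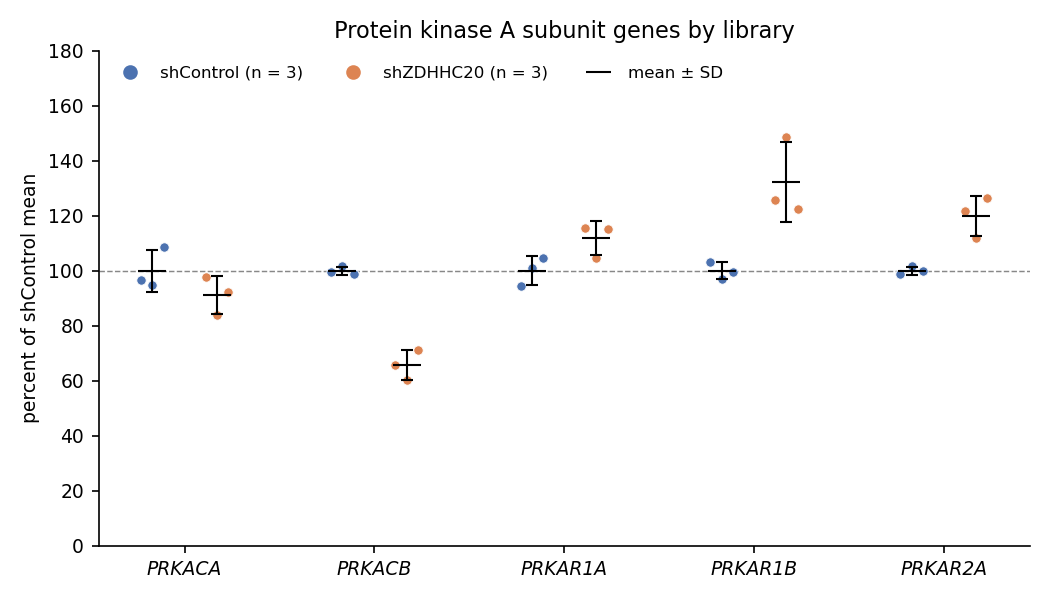
Values of the protein kinase A subunit genes in each library (those whose mean was 10 or more) as percent of the shControl mean (points), with the mean and SD of each group (bars, n = 3). PRKACB drops to 65.7%, PRKAR1B and PRKAR2A rise to 132% and 119.9%, and PRKACA and PRKAR1A overlap between the groups.

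ARHGEF12 averaged 8043 ± 112 normalized counts in shControl and 6723 ± 591 in shZDHHC20 (log2 fold change -0.26, limma adjusted p = 0.0103). Its call was lost without shControl replicate 1, 2 or 3 (limma, adjusted p = 0.0513, 0.0717 and 0.0612). PDE8A, a cAMP-specific phosphodiesterase, averaged 1108 ± 54.8 and 1426 ± 163 normalized counts (log2 fold change 0.36, limma adjusted p = 0.0104). Its call was lost without shControl replicate 1 or 2 (limma, adjusted p = 0.0687 and 0.0684) and without shZDHHC20 replicate 1 or 3 (0.0646 and 0.0513). Of the 5 genes, PRKACB was thus the only one whose call held without each of the 6 libraries in turn. None of the 5 was called without the mean-variance trend. Over all settings tried, the log2 fold change ranged from 0.31 to 0.45 for PRKAR1B and from -0.32 to -0.19 for ARHGEF12. For PDE8A it ranged from 0.28 to 0.45.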

How the data were processed

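The authors deposited 1 normalized signal per gene and library for 27394 Ensembl genes. The file is named as FPKM, but in each column 100% of values were whole multiples, within 0.01, of its smallest value above 0, as with counts divided by a size factor, so the unit differed from the one the design had assumed, and its log-scale test was applied unchanged. The true depth is unknown. The labels name hg19 and a directional library kit for total RNA, and the aligner, counter and normalization are not given in the sources used here. Columns named NC and siZDHHC20 were matched to the shControl and shZDHHC20 titles by group and number.

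Symbols came from the reference table for 27175 genes. Positions, transcripts and coding starts came from GENCODE 29 (GRCh38), and promoters from RefSeq (GRCh38.p14). Values were tested as log2(value + 0.1), a scale on which fold changes of genes near 0 rest on the pseudocount and can exceed or fall short of the ratio of group means, with limma 3.58.1 in R 4.3.3 (lmFit, eBayes with trend, two-sided), over genes with a mean of at least 1, with Benjamini-Hochberg adjustment over all genes. On simulated data, 200 of 200 2-fold changes, all in genes with a mean of at least 100, were recovered among 22239 genes, and 3 unchanged genes were called. All simulated libraries had the same added spread, and none stood apart as shZDHHC20 replicate 2 did, so these counts need not hold for the real libraries. Recovery at lower means or of smaller changes was not simulated. Exact permutation tests were two-sided. Figures used matplotlib 3.10.9.

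The members and lists were chosen with earlier results of these data known. Values in every library were given for GNB1 to GNB5, for members with an adjusted p under 0.05 and for the most abundant member per length of each role, and pathway genes were named where called. PRKACA, PRKAR1A, PRKAR2B and members with shZDHHC20 replicate 2 as their highest or lowest library (GNG5, GNA13, RGS14) were named after their values were seen.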

Additional observations from a re-analysis of the deposited data

How the results depend on the processing

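Without the mean-variance trend, the calls fell from 2541 to 351 of all genes, from 9 to 2 of the G protein and RGS genes (GNB1 and GPR157 kept theirs) and from 5 to 0 of the pathway genes; the cause was not tested. Leaving out 1 library at a time gave between 1233 and 4454 calls over all genes, 4 to 13 among the G protein and RGS genes and 2 to 15 among the pathway genes, with the highest of each without shZDHHC20 replicate 2. GNB1 stayed between -0.76 and -0.73, and its difference to its paralogs between -0.77 and -0.69. The groups share replicate numbers, but the deviations of same-numbered libraries correlated at -0.0948, -0.156 and -0.0771, so the numbers were not taken to pair them. A fit with the replicate block gave 1942, 7 and 5 calls, with GNB1 at -0.75 (limma, adjusted p = 5.01e-06) and its paralog difference at -0.72 (exact permutation p = 0.25, the smallest possible), and GNAI2 (adjusted p = 0.107) and RGS10 (0.0777) were not called.

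Directions turned only for genes that were not called. GNG12 was at 0.0025 after quantile normalization. Over the fits without 1 library, GNAS ranged from -0.21 to 0.0032, GNA11 from -0.075 to 0.11, GNA15 from -0.0015 to 0.22, GNB1L from -0.14 to 0.21, GNG12 from -0.032 to 0.014, RGS2 from -0.053 to 0.60, RGS3 from -0.013 to 0.13, RGS12 from -0.06 to 0.13 and RGS20 from -0.030 to 0.16. Robust moderation, median-ratio or quantile scaling, a filter at 5 or none, and pseudocounts of 0.01 or 1 kept each count of calls within 1.5 times. Among the 9 called genes, no filter lost GNAI2 (adjusted p = 0.0562) and quantile normalization lost RGS10 (0.0504). The planned count models were not run.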

Other observations

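Of 20 further genes of the alpha, gamma and RGS families, 7 had a mean of at least 1 and 0 were called in limma. At an unadjusted p under 0.05 there were 2, a cut that at least 5077 of all 22189 genes pass. The nearest was RGS11, an R7 family gene, at 61.6, 67.3 and 81.1 normalized counts in shControl and 106, 142 and 85.6 in shZDHHC20. Its groups did not overlap, and the log2 fold change was 0.64 (limma, adjusted p = 0.0514). The other was RGS9, also of the R7 family, which was lower in shZDHHC20, at 40.4, 36.2 and 42.1 normalized counts in shControl and 22.3, 19.7 and 31.8 in shZDHHC20. Its groups did not overlap either, with a log2 fold change of -0.71 (limma, adjusted p = 0.12).

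Promoters of 31 of the G protein and RGS genes were held by RefSeq (GRCh38.p14), from 250 bases before to 50 after the gene start. The E-box CACGTG, which reads the same on both strands, was found in 5 of the 31 (16.1%) and in 8.77% of 27305 genes. The cAMP response element TGACGTCA, also the same on both strands, was found in 2 of the 31 (6.45%) and in 2.25% of genes. Among the 9 called genes, the E-box was matched in the promoter windows of GNAI2 and RGS19 and the cAMP response element in that of GNAO1, at positions -207, -223 and -148 from the RefSeq start that the window was cut from. These RefSeq starts lie within the GENCODE spans given above for the genes, so the GNAI2 and RGS19 matches are inside those spans and the GNAO1 match overlaps the first bases of its span. Windows of 30 bases are shown with the motif in capitals, from 5′ to 3′ on the strand of the gene, at chr3:50246691-50246720 (plus), chr20:64079724-64079753 (minus) and chr16:56191330-56191359 (plus). A match is a stretch of letters and not a site shown to be bound.
GNAI2: tcttcctggcccCACGTGttcccacggagc
RGS19: cgccgccaggtcCACGTGgaccctgggccg
GNAO1: cgcggccctgcTGACGTCAgctggcggccc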
